A study of Mus musculus with 34 samples.

Results

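Ccl2, Ccl3, Ccl4, Ccl5, Ccl6, Ccl7, Ccl8, Ccl9, Ccl11 and Ccl24 are 10 CC chemokine genes for which the bead array carried 12 probes, of 25697 probes in all and of 16593 named genes. The genes were listed with earlier results of these data known, and all their probes were taken by symbol from the array's annotation. All 12 probes passed the filter on low values that kept 21110 probes. Total RNA of the distal colon was measured on 34 arrays, 1 per mouse. The mice were female BALB/c and 8 weeks old, and 4 of them formed the healthy group, whose labels name no treatment. The other mice were given TNBS, a hapten that induces colitis when instilled into the rectum, with a skin sensitisation on day 0 and rectal instillations in ethanol on days 7, 14 and 21, at doses that began at 0.75 mg and rose by 0.75 mg each time. Groups of 5 mice were examined on each of 6 days. Days 9, 16 and 23 came 2 days after an instillation, and days 14, 21 and 28 came 7 days after one. Because the healthy mice are not described as having received ethanol or skin treatment, TNBS and its vehicle cannot be told apart, and later days also differ in dose and in the number of instillations.

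CC chemokines are small secreted proteins, named for a pair of adjacent cysteines, that attract leukocytes through G protein-coupled receptors. In mice, Ccl2 and Ccl7 act on Ccr2 of monocytes, Ccl3 and Ccl4 (macrophage inflammatory proteins) attract and activate myeloid cells, and Ccl11 and Ccl24 are eotaxins, ligands of Ccr3 on eosinophils. Ccl6 and Ccl9 are mouse chemokines of myeloid cells, Ccl5 is made by T and NK cells among others, and mouse Ccl8 binds Ccr8.

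On chromosome 11, a RefSeq gene table (GRCm38.p6) places the members in the order Ccl2, Ccl7, Ccl11, Ccl8, Ccl5, Ccl9, Ccl6, Ccl3 and Ccl4, while Ccl24 lies on chromosome 5. Ccl9, Ccl6 and Ccl3 are neighbours in this order whose signals followed different courses after TNBS, and the 250 bases before their start sites, read on the minus strand from RefSeq at GRCm38.p6, are shown for that reason. They lie at chr11:83578637-83578886 for Ccl9, chr11:83593088-83593337 for Ccl6 and chr11:83649379-83649628 for Ccl3. Capitals mark every match to 4 motifs searched on both strands, the NF-kB type (GGG, any 5 bases, CC), the AP-1 type (TGANTCA), the STAT type (TTCNNNGAA) and the interferon type (GAAA, any 2 bases, GAAA).
Ccl9: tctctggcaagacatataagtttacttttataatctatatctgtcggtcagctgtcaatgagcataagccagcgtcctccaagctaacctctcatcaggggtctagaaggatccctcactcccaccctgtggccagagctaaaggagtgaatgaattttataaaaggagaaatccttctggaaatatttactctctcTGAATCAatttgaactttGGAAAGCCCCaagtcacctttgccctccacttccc
Ccl6: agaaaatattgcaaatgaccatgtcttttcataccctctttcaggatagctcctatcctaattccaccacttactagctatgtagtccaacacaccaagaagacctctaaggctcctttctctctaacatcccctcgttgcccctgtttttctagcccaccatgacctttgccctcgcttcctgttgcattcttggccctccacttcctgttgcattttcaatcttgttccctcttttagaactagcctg
Ccl3: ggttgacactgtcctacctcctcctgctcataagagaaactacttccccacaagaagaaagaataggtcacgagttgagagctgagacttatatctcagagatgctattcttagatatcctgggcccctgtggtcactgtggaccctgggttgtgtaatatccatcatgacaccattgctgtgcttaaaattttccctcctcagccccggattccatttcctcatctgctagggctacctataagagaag
Ccl9 holds TGAATCA at 53 to 47 bases before the start and GGAAAGCCCC, the reverse strand of the NF-kB type, at 35 to 26 bases before it. None of the 4 motifs was found in the windows of Ccl6 and Ccl3. Of 32851 promoter windows of this length, 45.8% hold the NF-kB type, 6.75% the AP-1 type, 7.02% the STAT type and 2.98% the interferon type, so a match is a description of the letters and not a known binding site. Promoter sequences were available for 4 of the 10 genes, the fourth being Ccl8.

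Values are normalized log2 signals, with values below 2.32 (5 on the linear scale) set to 2.32, and the background of an array was set at the 95th percentile of its 1326 probes for olfactory and related receptors, between 4.48 and 4.93. Of 6 colon epithelium markers, Cdh1, Krt8, Krt20, Vil1 and Cldn7 were above background on 34 of 34 arrays and Slc26a3, an anion exchanger of surface cells, on 18. Of 9 skeletal muscle markers, Mylpf, Myh1 and Myh4 were above background on 5 arrays and on none of the healthy mice. The other 6 were above background on 6 to 34 arrays, with Acta1 and Tnni2 on all. The mean of the 9 lay between 3.30 and 6.67 above the healthy mean on the log2 scale on 5 arrays, those of day 9 mice 2, 3 and 5, day 14 mouse 5 and day 21 mouse 5, and reached at most 0.21 in healthy mice. Squamous epithelium markers were highest in day 9 mice 4 and 5 and day 14 mouse 4, at 3.42, 4.86 and 4.15 above the healthy mean. Results of the CC chemokine probes whose call changed without these 5 arrays, called the arrays with muscle markers, are given both ways. Calls of all other genes named below were not examined without these arrays. Their day 9 calls include mice 2, 3 and 5 of that day, and whether they hold without them was not tested. In whole tissue, more cells of a type and more RNA per cell cannot be told apart.

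Most of these chemokines were high 2 days after an instillation and lower 7 days after it. Over the 15 mice of days 9, 16 and 23 against the 15 of days 14, 21 and 28, Ccl2, Ccl3, Ccl4, Ccl7, Ccl9, Ccl11 and Ccl24 were higher and Ccl6 was lower (limma, Benjamini-Hochberg adjusted p under 0.05 over all 21110 probes). In probes, 8 of 12 were higher and 1 was lower, where 2.96% of all probes were called higher and 2.72% lower. The median log2 difference of the 12 probes was 1.36, or 1.04 with Ccl3 at its lower bound, against -0.02 over all probes. Without the 5 arrays with muscle markers 6 probes passed, those of Ccl6, Ccl7, Ccl9, Ccl11 (both) and Ccl24, while Ccl2 (adjusted p = 0.15), Ccl3 (0.20) and Ccl4 (0.083) did not. The share of all probes called without those arrays was not counted.

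**Figure D1:**
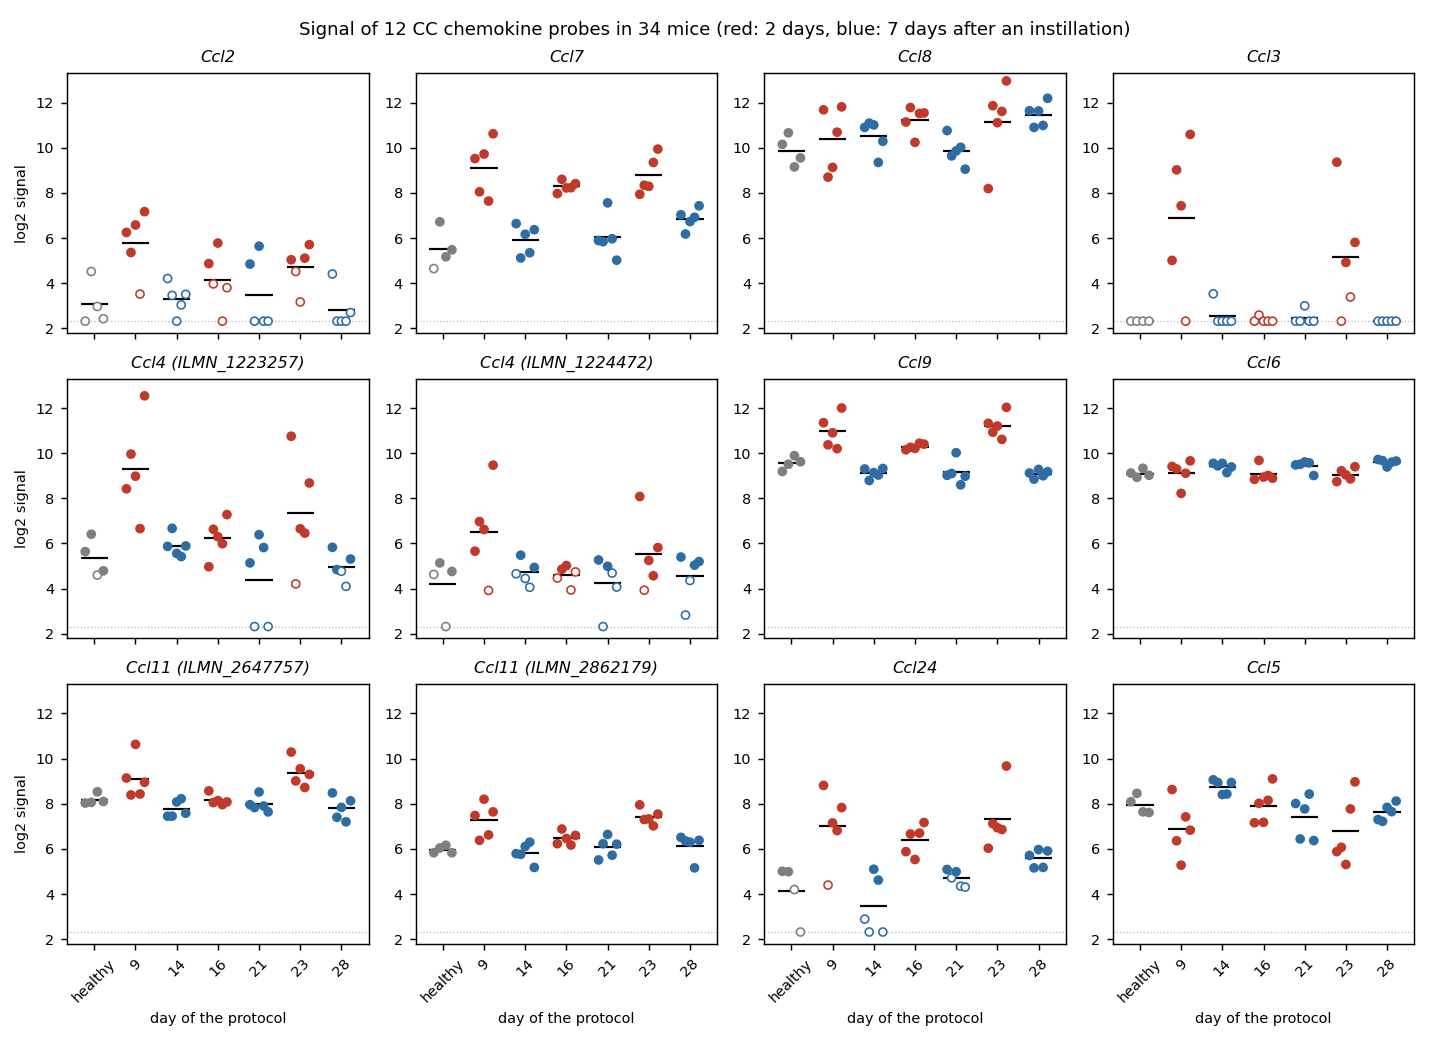
Log2 signal of the 12 probes in each of the 34 mice, by group, with a panel per probe. Each point is a mouse (open where not above background), grey for healthy, red for 2 days and blue for 7 days after an instillation, bars are group means and the dotted line is the floor of 2.32. The red groups of Ccl7 and Ccl9 lie above every blue group, and Ccl3 leaves the floor mainly on days 9 and 23.

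Ccl7 and Ccl2 attract monocytes. Ccl7 had log2 signals of 4.65, 6.72, 5.17 and 5.48 in the 4 healthy mice and of 9.52, 8.05, 9.72, 7.64 and 10.62 in the 5 mice of day 9. All day 9 mice lay above all healthy mice, and the change was 3.61 (SE 0.52, adjusted p = 0.00025), a 12.2-fold rise. With only these groups in the limma fit, the adjusted p was 0.12. On day 14 the signals were 6.64, 5.12, 6.17, 5.35 and 6.37, back among those of the healthy mice.

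After the second instillation Ccl7 rose again, with 7.97, 8.60, 8.22, 8.23 and 8.41 on day 16 (log2 change from healthy 2.78, adjusted p = 0.0029) and 5.89, 5.84, 7.56, 5.97 and 5.02 on day 21. After the third it was 7.94, 8.34, 8.29, 9.35 and 9.94 on day 23 (3.27, adjusted p = 0.00025, 9.66-fold) and 7.03, 6.18, 6.73, 6.92 and 7.43 on day 28. The day 16 and day 23 mice all lay above every healthy mouse, and each of the 15 mice examined 2 days after an instillation lay above each of the 15 examined 7 days after one. That difference was 2.44 on the log2 scale (SE 0.28, adjusted p = 2.9e-06), and it passed within each instillation, at 3.18 (adjusted p = 0.00067), 2.23 (0.023) and 1.92 (0.044). Without the arrays with muscle markers the first and second of these gave 2.76 (adjusted p = 0.051) and 1.97 (0.057). The second was lost without day 16 mouse 2 or 5 or day 21 mouse 1, 2 or 5 (adjusted p from 0.055 to 0.098), and the third without day 23 mouse 3, 4 or 5 or any single mouse of day 28 (0.055 to 0.12). On day 28 the Ccl7 mean of 6.86 ± 0.46 (SD, n = 5) stood 1.35 above the healthy mean of 5.50 ± 0.88 (SD, n = 4), with an adjusted p of 0.24.

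Ccl2 was above background in 11 of 34 mice. The healthy mice had 2.32, 4.52, 2.97 and 2.43, the day 9 mice 6.25, 5.36, 6.58, 3.52 and 7.17, the day 16 mice 4.87, 3.97, 5.78, 2.32 and 3.80 and the day 23 mice 5.04, 4.52, 3.17, 5.11 and 5.71. None of the healthy mice and 4 of 5 on day 9 were above background, which gives a signal at least 2.14-fold higher on day 9, but the change missed the threshold (adjusted p = 0.057). It passed without day 9 mouse 4, the mouse at 3.52 (adjusted p = 0.018), without healthy mouse 2 (0.036) and with a floor of 20 (0.026). With other single mice left out the adjusted p reached 0.18. Without the arrays with muscle markers the day 9 change was 1.82 (adjusted p = 0.45 in limma), against 2.72 with them. At 7 days after an instillation Ccl2 was 4.21, 3.46, 2.32, 3.04 and 3.51 on day 14, 4.85, 2.32, 5.64, 2.32 and 2.32 on day 21 and 4.41, 2.32, 2.32, 2.32 and 2.70 on day 28, with mice 1 and 3 of day 21 standing above the rest. Over all mice 2 days against 7 days after an instillation, Ccl2 was 1.67 higher (SE 0.42, adjusted p = 0.014), with 9 against 2 of 15 mice above background, and without the arrays with muscle markers the difference was 1.29 (adjusted p = 0.15).

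Ccl3 and Ccl4, products of activated macrophages and neutrophils, had the widest spread among the members on day 9. The SD was 3.28 for Ccl3 and 2.17 and 2.02 for the probes of Ccl4 (n = 5). Ccl3 was at the floor in all 4 healthy mice, and the day 9 mice had 5.01, 9.02, 7.43, 2.32 and 10.59. Day 9 mouse 4 thus lay at the floor with the healthy mice while the other 4 were above background, and the signal was at least 4.58-fold higher on day 9 (adjusted p = 0.022). On days 14, 16, 21 and 28 the highest Ccl3 value in any of 20 mice was 3.53, and none was above background.

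The third instillation was followed by Ccl3 values of 9.36, 2.32, 4.92, 3.39 and 5.81 on day 23, with 3 of 5 mice above background and an adjusted p against healthy mice of 0.11 (at least 1.40-fold higher). The 5 values of day 16 did not leave the background (highest 2.59). Day 16 lay below day 9 by 4.50 in log2 units without passing the threshold (adjusted p = 0.083). The difference passed without day 9 mouse 1 (0.032) or mouse 4 (0.0011), both without muscle markers. Without the arrays with muscle markers it was -1.29 and did not pass. Over all mice, 7 of 15 were above background 2 days after an instillation and 0 of 15 after 7 days (at least 1.08-fold higher, adjusted p = 0.014). From day 9 to day 14 Ccl3 was at least 4.58-fold lower (adjusted p = 0.033), a call lost without day 9 mouse 2, 3 or 5 or day 14 mouse 2, 3, 4 or 5 (0.07 to 0.11). The day 9 call against healthy mice was lost without healthy mouse 1, 3 or 4 or day 9 mouse 3 or 5 (adjusted p from 0.051 to 0.072) and with a floor of 20 (0.062), and day 23 passed without mouse 2 (0.042).

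The course of Ccl4 was similar on probe ILMN_1223257. The healthy mice had 5.64, 6.41, 4.60 and 4.79 and the day 9 mice 8.42, 9.96, 8.98, 6.66 and 12.54, without overlap. The log2 change was 3.95 (SE 1.01, adjusted p = 0.035), and it missed the threshold without healthy mouse 1, 3 or 4 or day 9 mouse 3 or 5 (0.061 to 0.12). On day 23 the signals were 10.75, 4.21, 6.65, 6.46 and 8.68, a range of more than 6 log2 units in which mouse 1 was highest and mouse 2 lay below all healthy mice, and the change of 1.99 had an adjusted p of 0.28. Day 16 gave 4.97, 6.63, 6.30, 5.99 and 7.28, overlapping with healthy mice. At 7 days after an instillation this probe lay between 5.42 and 6.67 on day 14, between 2.32 and 6.39 on day 21, with 2 mice at the floor, and between 4.10 and 5.83 on day 28. For 2 days against 7 days its difference was 2.55 (SE 0.55, adjusted p = 0.0047). The other probe of Ccl4 (ILMN_1224472) gave 2.32 on day 9 (adjusted p = 0.14, and 0.042 without mouse 4) and 1.04 for 2 against 7 days (0.20), and so made no call. Without the arrays with muscle markers these differences were 0.58 (adjusted p = 0.88) and 0.46 (0.69). Probe ILMN_1224472 was above background in 19 of 34 mice, against 28 for probe ILMN_1223257.

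The day 9 calls of Ccl3 and Ccl4 rested on the arrays with muscle markers. Of the 5 day 9 mice, mice 2, 3 and 5 carried these markers and had the highest Ccl3 signals, and without them the day 9 changes were 1.34 for Ccl3 (adjusted p = 0.65) and 2.18 for Ccl4 (0.44), from the remaining 2 mice, and the Ccl3 difference between days 9 and 14 was 1.04 (0.86). On day 23, where no array carried muscle markers, Ccl3 had the same change of 2.84 with and without the 5 arrays. The adjusted p in limma was 0.11 with them and 0.031 without. No healthy or day 23 mouse was left out, so only the spread shared over groups and the adjustment differed. The SD of Ccl3 was 3.28 on day 9, 2.71 on day 23 and 0 in healthy mice, all at the floor. The part of the muscle markers in these results was not tested.

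**Figure D2:**
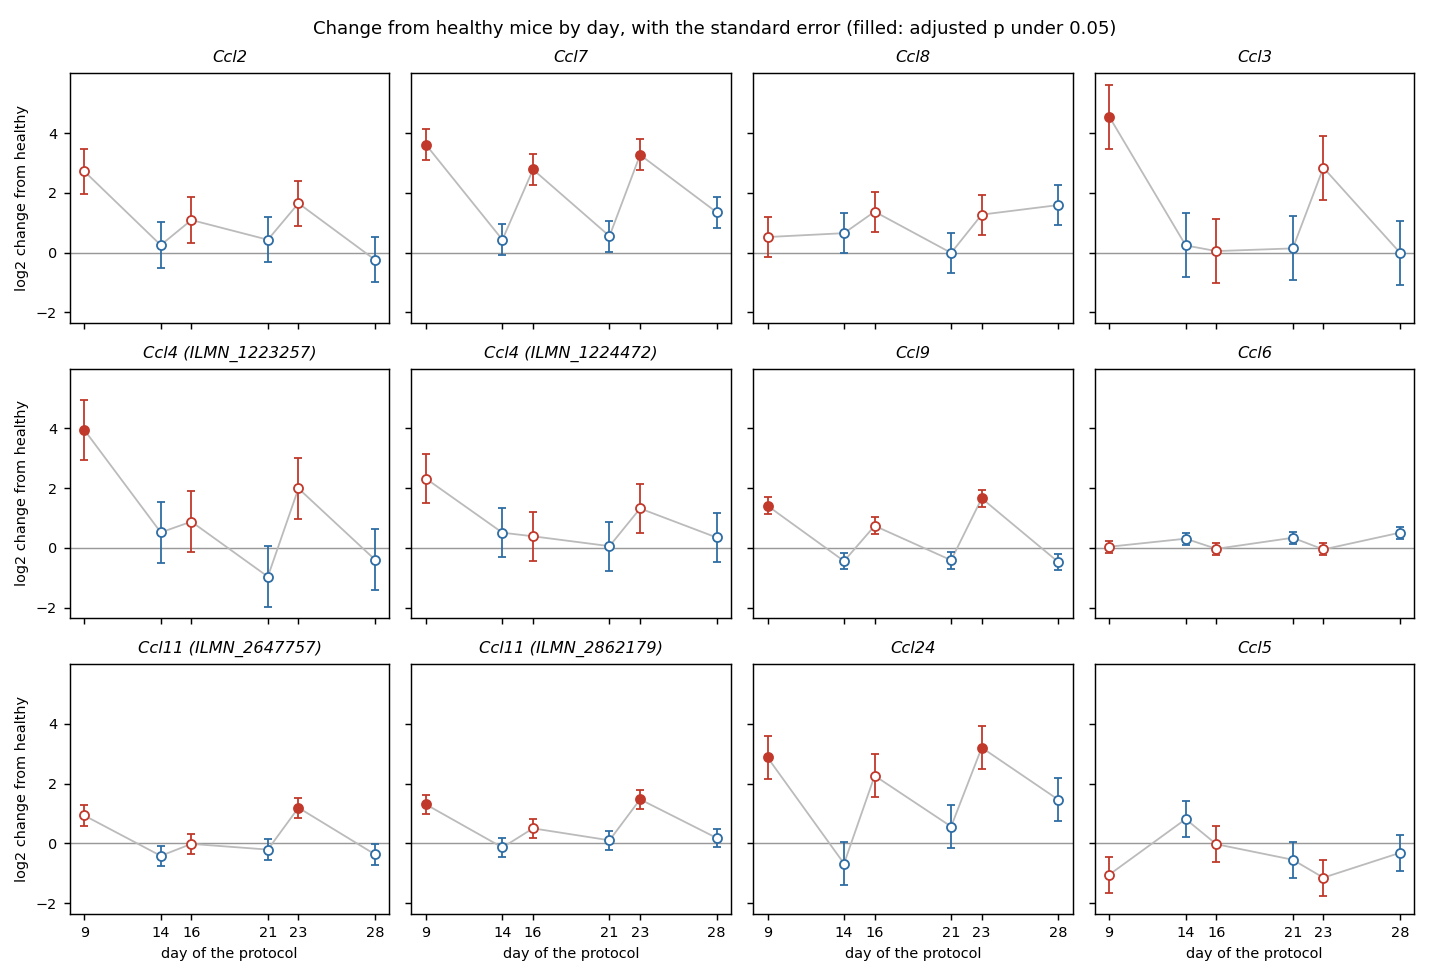
Log2 change of each probe from the healthy mean on each of the 6 days, from the fit over all 34 arrays. Bars are standard errors, and filled points passed an adjusted p of 0.05. Ccl7, Ccl9, Ccl24 and Ccl11 probe ILMN_2862179 are filled on days 9 and 23, only Ccl7 on day 16, Ccl3 and Ccl4 probe ILMN_1223257 only on day 9, Ccl11 probe ILMN_2647757 only on day 23, and no point on days 14, 21 and 28.

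Ccl9 attracts myeloid cells through Ccr1, and its mice at 2 and at 7 days after an instillation did not overlap. The signals were 9.19, 9.51, 9.89 and 9.62 in healthy mice and 11.35, 10.37, 10.90, 10.20 and 12.00 on day 9, a change of 1.41 (SE 0.28, adjusted p = 0.0072). All day 9 mice lay above all healthy mice, and with only these groups in the limma fit the adjusted p was 0.2. On day 14 they were 9.30, 8.79, 9.14, 9.03 and 9.32, and 3 of 5 lay below every healthy mouse.

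On day 16 the signals of Ccl9 were 10.15, 10.26, 10.21, 10.44 and 10.40, again above every healthy mouse, with a change of 0.74 that missed the threshold (adjusted p = 0.15). They were 9.02, 9.10, 10.02, 8.60 and 8.98 on day 21, 11.32, 10.93, 11.20, 10.61 and 12.03 on day 23 and 9.12, 8.85, 9.28, 9.00 and 9.18 on day 28. Day 23 stood 1.66 above healthy (SE 0.28, adjusted p = 0.00048). Each of the 15 mice at 2 days exceeded each of the 15 at 7 days. The difference was 1.71 (SE 0.15, adjusted p = 6.9e-08), and by instillation it was 1.85 (adjusted p = 0.00029), 1.15 (0.031) and 2.13 (3.6e-05). Without the arrays with muscle markers, day 9 against healthy gave 1.22 (adjusted p = 0.088) and day 16 against day 21 gave 1.11 (0.056), while day 23 against healthy and the other contrasts of 2 with 7 days passed. The call between days 16 and 21 was also lost without day 16 mouse 2, 4 or 5 or day 21 mouse 1, 2, 4 or 5 (0.057 to 0.098).

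Ccl6, its neighbour and a close relative, moved little and the other way. Its healthy signals were 9.12, 8.93, 9.33 and 9.02, those of day 9 9.41, 9.30, 8.22, 9.11 and 9.66 and those of day 28 9.72, 9.67, 9.39, 9.60 and 9.65. It ranged from 9.14 to 9.55 on day 14, from 8.84 to 9.68 on day 16, from 9.01 to 9.61 on day 21 and from 8.74 to 9.40 on day 23. The day 9 change was 0.04, with a 95% interval from -0.37 to 0.46. Over all mice Ccl6 was lower by 0.40 on the log2 scale 2 days than 7 days after an instillation (SE 0.11, adjusted p = 0.03). Between days 23 and 28 the log2 difference was -0.55 (adjusted p = 0.18). The same difference passed without the arrays with muscle markers (0.048), none of which is of these days. On day 28 all 5 mice lay above the healthy mice, by 0.51 in the mean, but the adjusted p was 0.26. Ccl6 was thus the member that differed least from healthy mice on day 9, while its neighbour Ccl9 rose in every mouse.

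The eotaxins Ccl11 and Ccl24 both rose on days 9 and 23. Ccl11 probe ILMN_2647757 gave 8.03, 8.06, 8.53 and 8.10 in healthy mice, 9.14, 8.39, 10.63, 8.43 and 8.95 on day 9 and 10.29, 9.01, 9.55, 8.72 and 9.30 on day 23. Day 23 did not overlap with healthy mice, and day 9 overlapped through mice 2 and 4. The changes were 0.93 (SE 0.34, adjusted p = 0.16) on day 9 and 1.19 (SE 0.34, adjusted p = 0.028) on day 23. The latter missed the threshold without healthy mouse 1, 2 or 4 or day 23 mouse 1 or 3 (0.056 to 0.085).

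On Ccl11 probe ILMN_2862179 the signals were 5.83, 6.04, 6.16 and 5.83 in healthy mice, 7.48, 6.38, 8.20, 6.62 and 7.64 on day 9, 6.23, 6.88, 6.46, 6.17 and 6.60 on day 16 and 7.95, 7.30, 7.33, 7.02 and 7.54 on day 23. Every mouse of these 3 TNBS days exceeded every healthy mouse. On days 14, 21 and 28 this probe lay between 5.16 and 6.64, around the healthy values. Day 9 rose by 1.30 (SE 0.31, adjusted p = 0.022) and day 23 by 1.47 (SE 0.31, adjusted p = 0.0032). The probes disagreed on the day 9 call but not on its direction, and 2 against 7 days they gave 1.03 (adjusted p = 0.00061) and 1.04 (0.00018). The fall from day 23 to day 28 passed on both, at 1.56 (adjusted p = 0.0074) and 1.29 (0.017), and that from day 9 to day 14 at 1.35 (0.035) and 1.43 (0.01). Without the arrays with muscle markers the day 9 rise was 1.08 (adjusted p = 0.13), and neither probe passed between days 9 and 14 (0.98, adjusted p = 0.41, and 1.06, adjusted p = 0.29). Leaving out single mice ended the day 9 rise of probe ILMN_2862179 (healthy mouse 1 or 4, day 9 mouse 1, 3 or 5, adjusted p from 0.052 to 0.077), its fall to day 14 (day 9 mouse 3, 0.053) and to day 28 (day 28 mouse 4, 0.067), and the fall of probe ILMN_2647757 to day 14 (day 9 mouse 1, 3 or 5, day 14 mouse 1, 2 or 5, 0.057 to 0.13).

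Ccl24 had signals of 5.01, 4.99, 4.20 and 2.32 in healthy mice and 8.81, 4.40, 7.15, 6.81 and 7.83 on day 9. Mouse 2 of day 9 lay among the healthy mice, and the other 4 lay above them. The change was 2.87 (SE 0.72, adjusted p = 0.032), and it was 3.68 (adjusted p = 0.035) without the arrays with muscle markers. The call was lost without healthy mouse 3 (0.069) or 4 (0.13) and without day 9 mouse 1, 3 or 5 (0.063 to 0.088), and with the mouse number as a block (0.053). Day 14 gave 2.89, 2.32, 5.10, 4.62 and 2.32, so that Ccl24 dropped by 3.55 in log2 units between days 9 and 14 (adjusted p = 0.0065 in limma). It was above background in 2 of 4 healthy mice, 4 of 5 of day 9 and 2 of 5 of day 14. With 1 healthy mouse and 2 of day 14 at the floor, the sizes of these changes depend in part on the floor.

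After the later instillations Ccl24 was 5.88, 6.66, 5.53, 6.70 and 7.17 on day 16 and 5.09, 4.72, 4.99, 4.35 and 4.31 on day 21, then 6.03, 7.12, 6.94, 6.86 and 9.67 on day 23 and 5.71, 5.16, 5.97, 5.18 and 5.91 on day 28. All mice of days 16, 23 and 28 lay above every healthy mouse. The change passed on day 23 (3.20, SE 0.72, adjusted p = 0.0055) and missed the threshold on day 16 (2.26, adjusted p = 0.072) and day 28 (1.46, adjusted p = 0.38). Without the 5 arrays with muscle markers, none of them healthy or of day 16, the same change on day 16 passed with an adjusted p of 0.047. Over 2 against 7 days the difference was 2.33 (SE 0.39, adjusted p = 0.00031), and 12 of 15 mice lay above all mice at 7 days.

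Ccl5 and Ccl8 passed in no comparison. Ccl5 had 8.09, 8.46, 7.64 and 7.61 in healthy mice, 8.63, 6.36, 5.28, 7.42 and 6.83 on day 9, 9.06, 8.94, 8.41, 8.43 and 8.94 on day 14 and 5.88, 6.07, 5.31, 7.77 and 8.97 on day 23. Its direction was down on days 9 and 23, at -1.05 (95% interval -2.28 to 0.18, adjusted p = 0.43) and -1.15 (adjusted p = 0.29), and up on day 14, at 0.81 (adjusted p = 0.68). Day 9 against day 14 gave a log2 difference of -1.86 (adjusted p = 0.13), which passed without day 9 mouse 1 (0.048). The low day 9 signals were those of mice 2, 3 and 5, which carried muscle markers. Without the arrays with muscle markers the day 9 difference was 0.07 from healthy mice and -0.69 from day 14. The mean of the T and NK cell markers lay between -0.80 and 0.10 on day 9 and between -1.41 and 0.56 on day 23, with the lowest value in day 23 mouse 1, and its part in the Ccl5 signal was not tested.

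Ccl8 ranged widely within days. It was 10.15, 10.66, 9.15 and 9.55 in healthy mice, 11.68, 8.70, 9.13, 10.69 and 11.81 on day 9, 8.19, 11.86, 11.11, 11.61 and 12.96 on day 23 and 11.64, 10.90, 11.63, 10.99 and 12.19 on day 28. The day 28 mice all lay above the healthy mice, by 1.59 in the mean (95% interval 0.23 to 2.96, adjusted p = 0.29). Day 23 gave 1.27 (adjusted p = 0.30), and 2.01 without mouse 1 (adjusted p = 0.026), whose signal of 8.19 was below all healthy mice. The same mouse had the highest Ccl3 and Ccl4 of day 23 and a low Ccl5 of 5.88. Between 2 and 7 days Ccl8 differed by 0.31, with a 95% interval from -0.44 to 1.05.

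**Figure D3:**
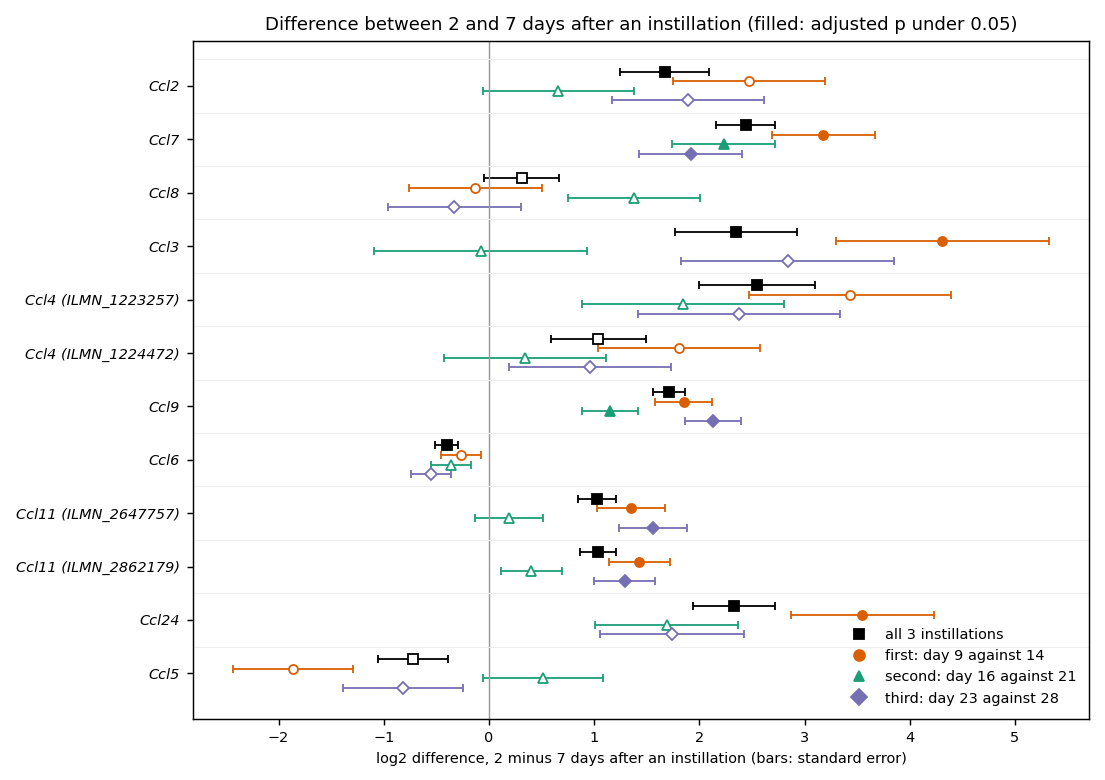
Log2 difference between mice 2 days and 7 days after an instillation for each probe, over all instillations (15 against 15 mice) and after each of the 3 instillations (5 against 5 mice each). Bars are standard errors. Ccl7 and Ccl9 are above 0 after each instillation, and Ccl6 is below 0 over all.

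By day, 6 of 12 probes were higher on day 9, where 1.19% of all probes were called higher. At an unadjusted p under 0.05 there were 9, against 3168 of all 21110 probes. The median change on day 9 was 1.86 (1.35 with Ccl2 and Ccl3 at their lower bounds). On day 16, 1 probe was higher (Ccl7) against 1.98% of all probes, and on day 23, 5 probes of 4 genes against 3.49%, with a median of 1.56 (1.29 with bounds). On days 14, 21 and 28, 0 probes passed in limma, against 0.459%, 0.701% and 1.26% of all probes in either direction. An unadjusted p under 0.05 was found for 0, 0 and 3 probes, against 2251, 2460 and 2781 of all 21110. Without the 5 arrays with muscle markers the counts were 2 on day 9, 2 on day 16 and 6 on day 23. The share of all probes called without those arrays was not counted, so these counts have no background beside them. The day 9 count fell to 3, 3 and 2 without healthy mouse 1, 3 or 4, and to 2 without day 9 mouse 3 or mouse 5.

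Between the 2 days of a round, 6 probes of 5 genes were higher on day 9 than on day 14 (0.545% of all probes), 2 on day 16 than on day 21 (0.63%) and 4 probes of 3 genes on day 23 than on day 28 (1.1%). Without the arrays with muscle markers these counts were 2, 0 and 4, and Ccl6 was lower on day 23 than on day 28, with no share of all probes counted. Leaving out day 9 mouse 3 took the first count to 3, and leaving out day 28 mouse 4 took the third to 2. The second was 0 without day 16 mouse 2 or 5 or day 21 mouse 1, 2 or 5, and 1 without day 16 mouse 4 or day 21 mouse 4. No difference between the first round and the third was shown: 0 of 12 probes differed between days 23 and 9, where 0.194% of all probes were called, and 0 in the size of the fall (0.0805%). In limma 1 and 0 had an unadjusted p under 0.05, against 2038 and 1694 of all 21110 probes. The differences between days 23 and 9 ran from -1.96 (95% interval -3.92 to -0.01) for Ccl4 probe ILMN_1223257 to 0.75 (-0.54 to 2.04) for Ccl8, with -0.34 for Ccl7. Without the arrays with muscle markers these 3 differences were -0.19, -0.04 and 0.19. That of Ccl3 was then 1.49, against -1.71 with them, and no member probe passed. Day 16 against day 9 also gave 0 calls (0.0995% of all probes). At an unadjusted p under 0.05 there were 7, against 1852 of all 21110 probes. Without the arrays with muscle markers no member probe passed between days 16 and 9 either.

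No gene for a receptor of these ligands passed. Of the CC chemokine receptor genes analysed, 14 had a probe and 9 were tested, with 0 calls by limma in each comparison. Ccr3, the eotaxin receptor, was above background on 0 of 34 arrays. The scavenging receptor Ackr1 and the atypical receptor Ccrl2 were above background on 34 of 34, Ackr2 on 27 and Ackr3 on 6. The median change of the tested receptors was 0.15 on day 9 and -0.07 on day 23, against -0.02 over all genes on both days.

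Other CC chemokines, 11 of them tested, were not higher in any comparison. On day 23 1 of them was lower, where 3.53% of all genes were called lower, and 2 were lower at 2 against 7 days (2.93%). Ccl28, a mucosal chemokine of epithelial cells, fell by 1.50 on the log2 scale on day 23 against healthy mice (adjusted p = 0.00065) and was lower 2 days than 7 days after an instillation, with a log2 difference of -0.72 (adjusted p = 0.0026). Ccl27a was lower in the second of these comparisons, with a log2 difference of -0.78 (adjusted p = 0.029), and was above background in 5 against 11 of 15 mice. Ccl12, which lies between Ccl11 and Ccl8 on the chromosome, made no call.

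Among 13 cytokine genes known to induce CC chemokines, 12 were tested and 3 were higher on day 9, where 1.38% of all genes were called higher (1 probe per gene), 3 on day 23 (4.1% of all genes) and 0 in limma on days 14, 16, 21 and 28. Osm (oncostatin M) was above background in 5 of 5 mice and in no healthy mouse on both days, at least 4.06-fold higher on day 9 (adjusted p = 0.0089) and at least 3.9-fold on day 23 (adjusted p = 0.0032). Il1b also rose on both days, by 3.07 (adjusted p = 0.015) and 2.32 (adjusted p = 0.035). Il33, an alarmin of barrier cells, rose by 1.37 on day 9 (adjusted p = 0.038), and Il4, which induces eotaxins, was at least 1.18-fold higher on day 23 (adjusted p = 0.049). Over 2 against 7 days Osm (2.22, adjusted p = 0.00052), Tnf (1.68, adjusted p = 0.015), Il1a (1.31, adjusted p = 0.047) and Il33 (0.92, adjusted p = 0.0038) were higher. The median change of the 12 was 1.03 on day 9 and 0.88 on day 23, against -0.02 over all genes.

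Of 12 genes of receptor signalling and feedback, 2 were higher on day 9 (1.38% of all genes), 2 on day 16 (2.31%), 5 on day 23 (4.1%) and 1 on day 28 (0.835%). Socs3, a feedback inhibitor of cytokine signalling, rose by 1.59 on day 9 (adjusted p = 0.018) and by 1.70 on day 23 (adjusted p = 0.0038). Bcl3, a nuclear regulator of NF-kB, rose by 1.37, 0.96 and 1.18 on days 9, 16 and 23 (adjusted p = 0.00036, 0.0067 and 0.00055). Bcl3 was also the gene called higher on day 28, and it was not called at 2 against 7 days. Arrb2, an arrestin that uncouples and internalises chemokine receptors, rose by 0.89 on day 23 (adjusted p = 0.002).

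Markers of leukocytes moved with the chemokines in part. Of 7 neutrophil markers, 4 were higher on day 9 (1.38% of all genes), 2 on day 16 (2.31%), 4 on day 23 (4.1%) and 5 at 2 against 7 days (3.41%), with 0 in limma on days 14, 21 and 28. Their mean difference from healthy lay between 2.63 and 4.67 on day 9, between 1.54 and 3.22 on day 16 and between 1.73 and 4.92 on day 23, with the highest in day 23 mouse 1, and between -0.53 and 0.49 in healthy mice. Of 8 monocyte and macrophage markers, 0 passed on day 9 and 1 on day 23, Mrc1, a mannose receptor of tissue macrophages (1.29, adjusted p = 0.0066). At 2 against 7 days 3 of the 8 were higher, Mrc1 (0.95, adjusted p = 0.00036), the Fc receptor gene Fcgr1 (0.80, adjusted p = 0.037) and the complement gene C1qb (0.42, adjusted p = 0.028). The part of these markers in the chemokine signals was not tested.

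Of 6 eosinophil markers tested, Rnase2a alone passed, on days 9, 16, 23 and 28 and at 2 against 7 days. Of 7 eosinophil markers with a probe, Prg2, Siglecf, Ccr3 and Alox15 were above background on 0 of 34 arrays, Epx on 1, Il5ra on 23, healthy mice included, and Rnase2a on 31, of which 1 was healthy. T and NK cell markers made 0 calls in limma among 8 tested in every comparison. Mast cell markers were higher from day 14 on, 3 of 6 on day 14 (0.271% of all genes) and 5 of 6 on days 16, 21 (0.371%), 23 and 28, and made 0 calls on day 9. Their mean difference reached 3.10 to 5.10 on day 28, when no CC chemokine passed.

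**Figure D4:**
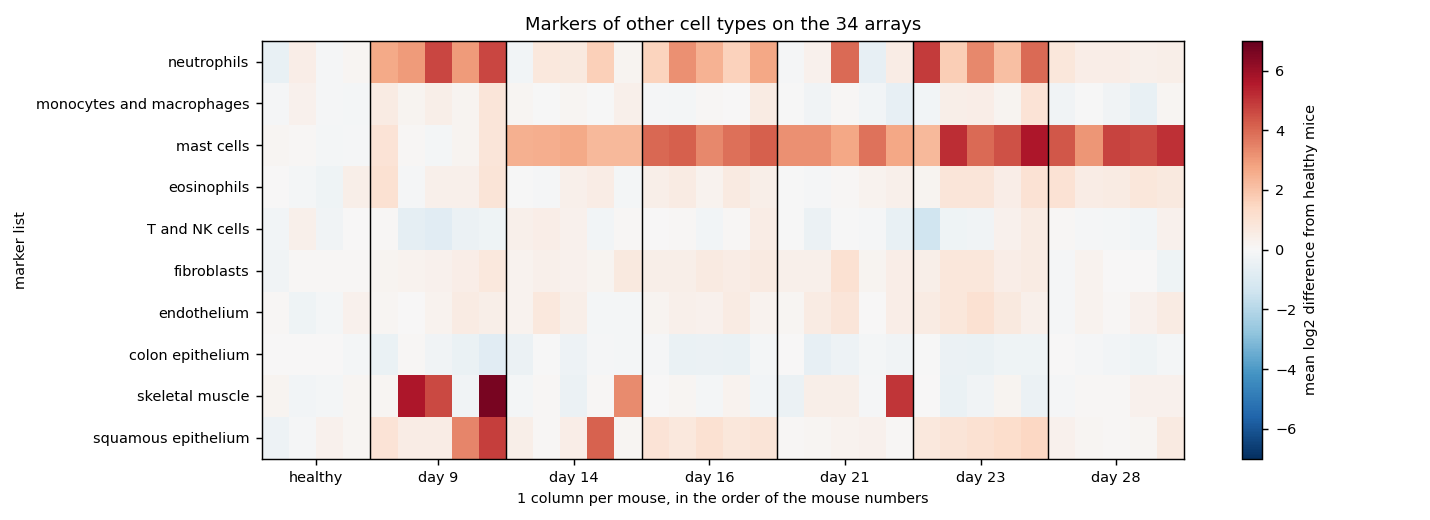
Mean log2 difference from the healthy mean of 10 marker lists in each of the 34 arrays. Columns are mice by group, rows are lists, and the colour scale runs from -7 to 7. Neutrophil markers are high on days 9, 16 and 23, mast cell markers from day 14 on, and skeletal muscle markers in 5 arrays.

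Across the 34 arrays the members fell into different patterns, given here as descriptions over arrays that share group means. Ccl3 correlated with Ccl4 probe ILMN_1223257 at r = 0.86 (0.78 within groups) and Ccl7 with Ccl9 at 0.86 (0.70 within groups). Ccl3 and Ccl24 correlated at 0.37, and at -0.16 within groups. The 2 probes of Ccl4 correlated at 0.86 and those of Ccl11 at 0.88.

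Among all tested genes, those most like Ccl3 were Cxcl2 (r = 0.94, 0.92 within groups) and Il1a (0.91, 0.86 within groups), a neutrophil attractant and a cytokine. For Ccl4 they were Fpr2, a formyl peptide receptor of neutrophils (0.87), and Cxcl1 (0.85). For Ccl9 they were Pf4, a platelet chemokine (0.94, 0.78 within groups), Chil3 (0.92) and Lgmn (0.91), the latter a lysosomal protease. Ccl7 was most like Ifitm1 and Emb (both 0.88, with 0.76 and 0.77 within groups). Ccl24 went with Rnase2a (0.84), Trem2 (0.82) and Mmp12 (0.82), genes of macrophages and eosinophils, and Ccl11 with Slc11a1 (0.86).

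Ccl5 was most like B2m (0.88, 0.94 within groups) and H2-K1 (0.85, 0.93 within groups), the light and a heavy chain of MHC class I. Ccl8 was most like Fads1 (0.85) and Tor3a (0.84), with the mast cell chymase gene Cma1 at 0.82, and Ccl2 like Wfdc17 (0.78). For Ccl6 the closest was Dusp8, at 0.75. The likeness of Ccl5 to MHC class I was as strong within groups as over all arrays, whereas that of Ccl7 to Arg1 was 0.86 over all arrays and 0.28 within groups.

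**Figure D5:**
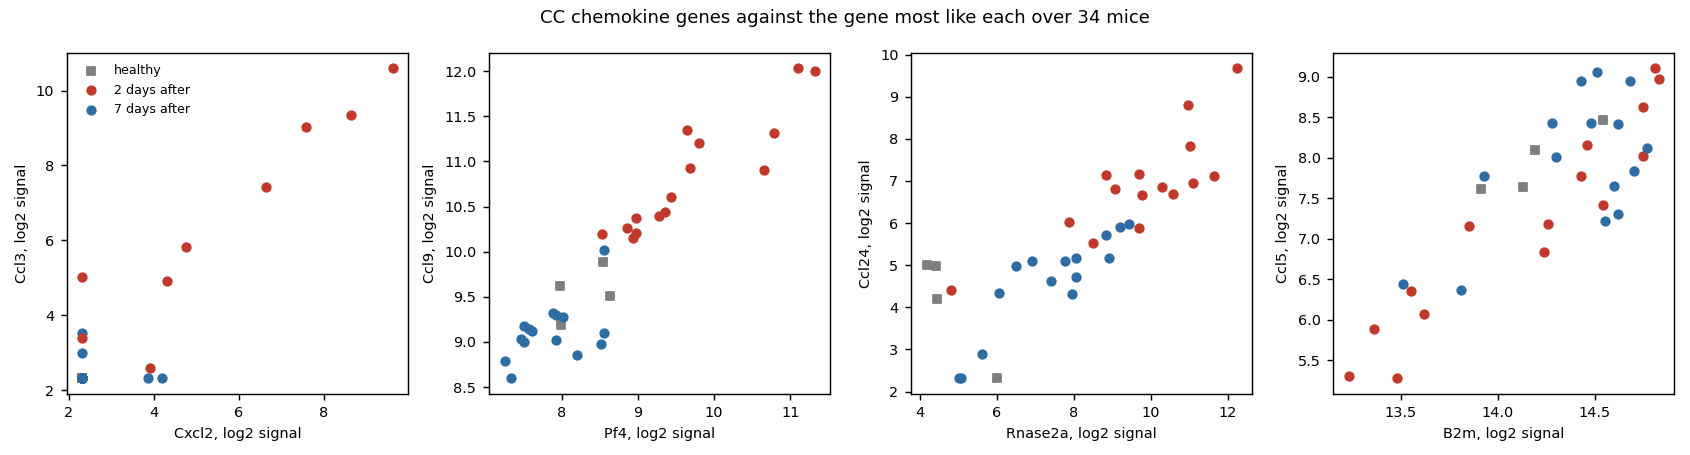
Log2 signals of 4 members against the most similar gene, with a point per mouse (34 arrays) coloured by group, for Ccl3 and Cxcl2, Ccl9 and Pf4, Ccl24 and Rnase2a, and Ccl5 and B2m. The r values are 0.94, 0.94, 0.84 and 0.88, and many Ccl3 points lie at the floor.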

How the data were processed

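RNA of the distal colon of 34 mice was measured on 1-colour Illumina MouseRef-8 arrays, with groups and numbers taken from the labels. The methods describe separate animals. Per the methods, the authors subtracted the background in BeadStudio (the submitters' notes name GenomeStudio), quantile normalized in GeneSpring GX, set a floor of 5, removed unexpressed probes and used limma. The authors deposited normalized values of 25697 probes that reach below this floor, and their log2 scale is not stated and was inferred from the values. The floor and the filter were therefore applied here. Another 68 columns named by chip position were not paired with mice and were not used.

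Probes above 5 in at least 4 arrays were kept (21110) and fitted with limma 3.58.1 in R 4.3.3 (lmFit, eBayes) over 7 groups with 27 residual degrees of freedom, with Benjamini-Hochberg adjustment within each contrast at 0.05. Python 3.11.15 and Biopython 1.88 served for tables and sequences. The steps were tested on simulated data. Background was the 95th percentile of 1326 receptor probes on the same array. Where no mouse of the dimmer group was above it, a fold is a lower bound: the bright group's mean against, per array of the dim group, the higher of its background and the probe's own value. Arrays carry no read depth, and their number limits the precision. Array medians lay between 4.77 and 4.78, arrays of a group correlated at r between 0.943 and 0.971, and 48.5% to 52.8% of probes were above background.

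Of all probes, 23978 had 1 symbol, 1719 were not named and 23962 matched the RefSeq gene table. All members are named, with the listed genes that passed and the genes most alike by Pearson's r over 34 arrays. The members and lists were chosen with earlier results of these data known, and day 16 against day 9 was added after values were seen. The fit was repeated with a floor of 20, with 16 added in place of a floor, without the probe filter, with only the groups compared, eBayes with trend and robust, array weights, the mouse number as a block, a 99th percentile background and each array left out. The fit without the 5 arrays with muscle markers was chosen after seeing the data. Listed genes without a probe in the annotation were not analysed here.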

Additional observations from a re-analysis of the deposited data

Results flagged for a closer look

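Of 82 groups of 4 or 5 mice checked, 8 held a mouse that stood far from the others by Dixon's limit. Chance gives about 1 in 20 groups, but this rate does not hold where mice were set to the floor. The 8 of 82 therefore cannot be compared with it. For Ccl3 the far mice were day 14 mouse 1 (3.53), day 16 mouse 2 (2.59) and day 21 mouse 3 (3.00). Each was the single mouse of its day that left the floor, so it passed the limit by construction, and none was above background. Ccl2 on day 28 had mouse 1 at 4.41, also not above background, with 3 of the 5 mice at the floor. Day 21 mouse 3, with a mean of the neutrophil markers 3.98 above the healthy mean, also had the highest Ccl7 (7.56) and Ccl9 (10.02) of its day. For Ccl6, day 16 mouse 2 lay high at 9.68 and day 21 mouse 5, an array with muscle markers, low at 9.01. For Ccl11, healthy mouse 3 lay high on probe ILMN_2647757 (8.53) and day 28 mouse 4 low on probe ILMN_2862179 (5.16).

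Between 2 and 7 days after an instillation, tested per round in limma, the fitted log2 differences that passed after the first were 4.31 for Ccl3, 3.18 for Ccl7, 1.85 for Ccl9, 1.35 and 1.43 for the probes of Ccl11 and 3.55 for Ccl24. After the second they were 2.23 for Ccl7 and 1.15 for Ccl9, and after the third 1.92 for Ccl7, 2.13 for Ccl9, and 1.56 and 1.29 for the probes of Ccl11. The fall after the third instillation was not shown to differ from that after the first for any of the 12 probes. The Ccl3 value depends on the floor, since 0 of 5 mice of day 14 were above background, and the signal was at least 4.58-fold higher on day 9. The call was lost with a floor of 20 (adjusted p = 0.082) and without the arrays with muscle markers (1.04, adjusted p = 0.86).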

How the results depend on the processing

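Of 33 member results that passed, 0 changed sign under the alternatives, and 665 of their 762 values stayed past the threshold. With only the groups compared in the fit, the spread comes from fewer arrays and from those groups alone. Then 0 probes passed on day 9, 2 on day 16, 3 on day 23, 0 between days 9 and 14, 1 between days 16 and 21 and 1 between days 23 and 28. On day 9 the adjusted p was 0.12 for Ccl7, 0.2 for Ccl9, 0.21 for Ccl4 (ILMN_1223257), 0.22 for Ccl11 (ILMN_2862179), 0.27 for Ccl24 and 0.28 for Ccl3. The SD of Ccl7 ran from 0.24 on day 16 to 1.24 on day 9, and that of Ccl9 from 0.12 to 0.74. Array weights gave 2 on day 16. Without the arrays with muscle markers 2 passed on day 9, 2 on day 16, 2 between days 9 and 14 and 0 between days 16 and 21. The share of all probes called was counted in the main fit only, and not under the alternatives. With each array left out in turn, the counts ran from 2 to 8 on day 9, from 4 to 6 on day 23, from 3 to 8 between days 9 and 14, from 0 to 2 between days 16 and 21, from 2 to 4 between days 23 and 28 and from 0 to 1 for day 16 against day 9, and the count for 2 against 7 days was 9 each time. With a floor of 20, Ccl3 passed neither on day 9 (2.95, adjusted p = 0.062) nor for 2 against 7 days (1.46, adjusted p = 0.062). With the mouse number as a replicate block, 4 probes passed on day 9, where Ccl4 (3.79, adjusted p = 0.059) and Ccl24 (2.76, adjusted p = 0.053) did not, and all other counts were as without the block. The number pairs no animals: 99 pairs of arrays with the same number had a median r of 0.006 in their deviations from group means (-0.132 to 0.152), and 10 of 34 arrays were closest to one of their own number. Signals of Ccl2 and Ccl3 near background limit their fold changes to bounds. Ccl24 was also near background in healthy mice and on days 14 and 21. The causes of these changes were not tested.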
